A study of Mus musculus with 9 samples.

Results

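Cytotoxic lymphocytes kill target cells with proteins stored in secretory granules, and they decide when to release them through receptors on their surface. The 10 genes described here are 4 granule effectors (Gzma, Gzmb, Gzmk and Prf1), the granule membrane protein gene Nkg7, the death ligand gene Fasl and 4 receptor genes of natural killer (NK) cells (Klrk1, Klrd1, Ncr1 and Klrb1c). They were chosen by symbol, and all 10 were matched to 1 Ensembl identifier each among the 56719 genes of the count files. Their messenger RNA was measured in bulk liver, in 9 libraries of C57BL/6J mice, 3 in each of 3 groups. FMT-Con A mice were gavaged for 4 weeks with a suspension of faeces from mice with autoimmune hepatitis induced by concanavalin A (Con A) and then received Con A at 10 mg/kg into the tail vein on the day of sampling. Con A mice received buffer in place of faeces and the same injection, and WT mice received buffer both times. The labels give the mice as male in one field and female in another. The Y-linked gene Ddx3y had between 2676 and 6192 counts in every library and Uty between 427 and 935, so every library held RNA of male mice. Con A, a lectin of jack beans, stimulates T cells and gives mice an immune-mediated hepatitis.

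Perforin, the product of Prf1, opens pores through which granzymes enter the target cell, where granzyme B cleaves caspases and other substrates. The mouse liver is rich in NK cells, type 1 innate lymphoid cells and NKT cells, which carry granules of this kind and several of these receptors. In bulk tissue fewer cells of a type and less RNA per cell cannot be told apart, and this holds for every level below.

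Total counts ran from 21580482 to 29466806 in FMT-Con A, 21772376 to 25890947 in Con A and 20513051 to 22770276 in WT. Levels are given as CPM, counts relative to a library total adjusted by TMM factors, where 1 count was worth 0.0316 to 0.0524 CPM. The hepatocyte gene Alb averaged 19256 CPM in FMT-Con A, 35418 in Con A and 38805 in WT. A list of 20 skeletal muscle genes summed to 20035, 2090 and 19849 CPM in FMT-Con A, to 12, 22.3 and 2458 CPM in Con A and to 54.1, 42.4 and 57.3 CPM in WT. FMT-Con A 1 and 3 therefore stood apart from FMT-Con A 2, and Con A 3 from the other Con A libraries. Calls that change without these libraries are given with the results. Mitochondrial transcripts took 7.44 to 11.7% of the counts in FMT-Con A, 5.03 to 9.96% in Con A and 19.6 to 22.4% in WT. The labels number the libraries of a group without saying whether each is its own mouse, so p-values reflect library-to-library spread, which may be technical.

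The promoters of 5 members are printed because their genes mark the poles of the results. Gzmb and Gzma had the largest differences between Con A and WT, and Prf1 the largest between FMT-Con A and Con A. Ncr1 is the receptor gene that rose after Con A among those that passed the filter on low counts, and Klrk1 a receptor gene that did not rise. Each is the window of 250 bases before to 50 after the gene start in RefSeq on GRCm38.p6, which for Gzmb lies upstream of the start in the GENCODE span given below, 5′ to 3′ on the strand of the gene, and capitals mark TGTGGT, the core bound by RUNX factors, on either strand.
Gzmb, chr14:56262285-56262584, minus strand: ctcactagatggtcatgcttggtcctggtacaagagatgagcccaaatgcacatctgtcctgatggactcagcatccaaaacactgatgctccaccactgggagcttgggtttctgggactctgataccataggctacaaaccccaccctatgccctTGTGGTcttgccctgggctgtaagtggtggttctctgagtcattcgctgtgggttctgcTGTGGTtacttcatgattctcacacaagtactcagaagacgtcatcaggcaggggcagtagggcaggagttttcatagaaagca
Gzma, chr13:113100932-113101231, minus strand: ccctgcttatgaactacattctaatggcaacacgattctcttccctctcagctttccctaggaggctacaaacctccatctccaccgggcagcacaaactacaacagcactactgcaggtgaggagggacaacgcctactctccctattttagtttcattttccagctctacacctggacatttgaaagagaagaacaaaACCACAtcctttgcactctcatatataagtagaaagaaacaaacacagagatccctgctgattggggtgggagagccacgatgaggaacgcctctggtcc
Prf1, chr10:61297586-61297885, plus strand: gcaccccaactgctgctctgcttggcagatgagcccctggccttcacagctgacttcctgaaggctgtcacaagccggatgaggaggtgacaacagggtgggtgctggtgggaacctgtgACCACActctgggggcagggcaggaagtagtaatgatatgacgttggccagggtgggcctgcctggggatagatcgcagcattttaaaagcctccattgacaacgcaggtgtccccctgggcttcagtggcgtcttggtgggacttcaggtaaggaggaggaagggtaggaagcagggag
Ncr1, chr7:4337465-4337764, plus strand: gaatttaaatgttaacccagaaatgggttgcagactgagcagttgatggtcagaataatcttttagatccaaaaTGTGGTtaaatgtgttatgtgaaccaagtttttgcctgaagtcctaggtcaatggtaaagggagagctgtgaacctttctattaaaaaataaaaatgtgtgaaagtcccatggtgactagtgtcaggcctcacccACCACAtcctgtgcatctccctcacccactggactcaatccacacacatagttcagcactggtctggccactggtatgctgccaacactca
Klrk1, chr6:129623815-129624114, minus strand: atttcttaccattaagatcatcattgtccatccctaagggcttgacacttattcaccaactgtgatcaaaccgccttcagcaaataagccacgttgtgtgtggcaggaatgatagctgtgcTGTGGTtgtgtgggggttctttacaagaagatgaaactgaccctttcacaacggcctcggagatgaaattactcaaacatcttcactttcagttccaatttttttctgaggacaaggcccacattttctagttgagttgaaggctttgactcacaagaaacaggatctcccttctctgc
The table held promoters of 9 of the 10 members, without Klrd1. TGTGGT was found in 7 of the 9 and in 16.8% of the 32817 promoter windows of the same length. Fasl and Gzmk were the 2 without it. The T-box core GGTGTGA was found in 2 (Gzmk and Nkg7) against 3.98% of all windows, the STAT element TTCNNNGAA in 2 (Gzmb and Nkg7) against 8.29%, and the AP-1 element TGANTCA in 2 (Gzmb and Klrk1) against 7.81%. The cyclic AMP element TGACGT was found in 2 (Gzmb and Prf1) against 7.51%, the NFAT core GGAAAA in 2 (Fasl and Gzma) against 23.3%, and the ETS core AGGAAG in 4 (Fasl, Klrb1c, Nkg7 and Prf1) against 35.4%. The interferon-stimulated response element was found in the Gzma window and in 3.43% of all windows. All motifs were searched on both strands, the matches in Gzma to the interferon element and to GGAAAA overlap, and a match of these letters is a description and no evidence of binding.

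Gzma, Gzmb, Prf1 and Nkg7 transcripts were higher after Con A alone than in saline livers, and lower when the faecal transfer had come before Con A, by 1.07 (Nkg7) to 2.61 (Prf1) on the log2 scale. Of the tested receptor genes Ncr1 rose after Con A, while Klrk1 and Klrd1 did not pass in that comparison. Of the 10 members 8 passed the filter on low counts and were tested, and Gzmk and Klrb1c did not. Between Con A and WT 5 of the 8 rose (Gzma, Gzmb, Prf1, Nkg7 and Ncr1) and 0 fell, where 32.5% of all 17704 tested genes rose and 30.9% fell. The edgeR counts were also 5 and 0 at an unadjusted p under 0.05, and DESeq2 gave 6 higher, Klrb1c being the sixth, and 0 lower. Between FMT-Con A and Con A 7 fell and 0 rose, where 10.6% of all tested genes fell and 6.26% rose, and the counts were 7 and 0 at an unadjusted p under 0.05 and by DESeq2 too. Between FMT-Con A and WT 3 rose and 2 fell, where 31.2% of all tested genes rose and 27.9% fell. Calls are from edgeR's quasi-likelihood test with Benjamini-Hochberg adjustment over all tested genes at 0.05, and each pair of comparisons shares the libraries of a group. In Con A against WT the libraries of 6 tested members did not overlap and were higher and those of 0 were lower, beside 35% and 34.8% of all tested genes. In FMT-Con A against Con A those of 7 were lower and of 0 higher, beside 18.8% and 14%, and in FMT-Con A against WT those of 3 were higher and of 2 lower, beside 35.4% and 33.7%.

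**Figure D1:**
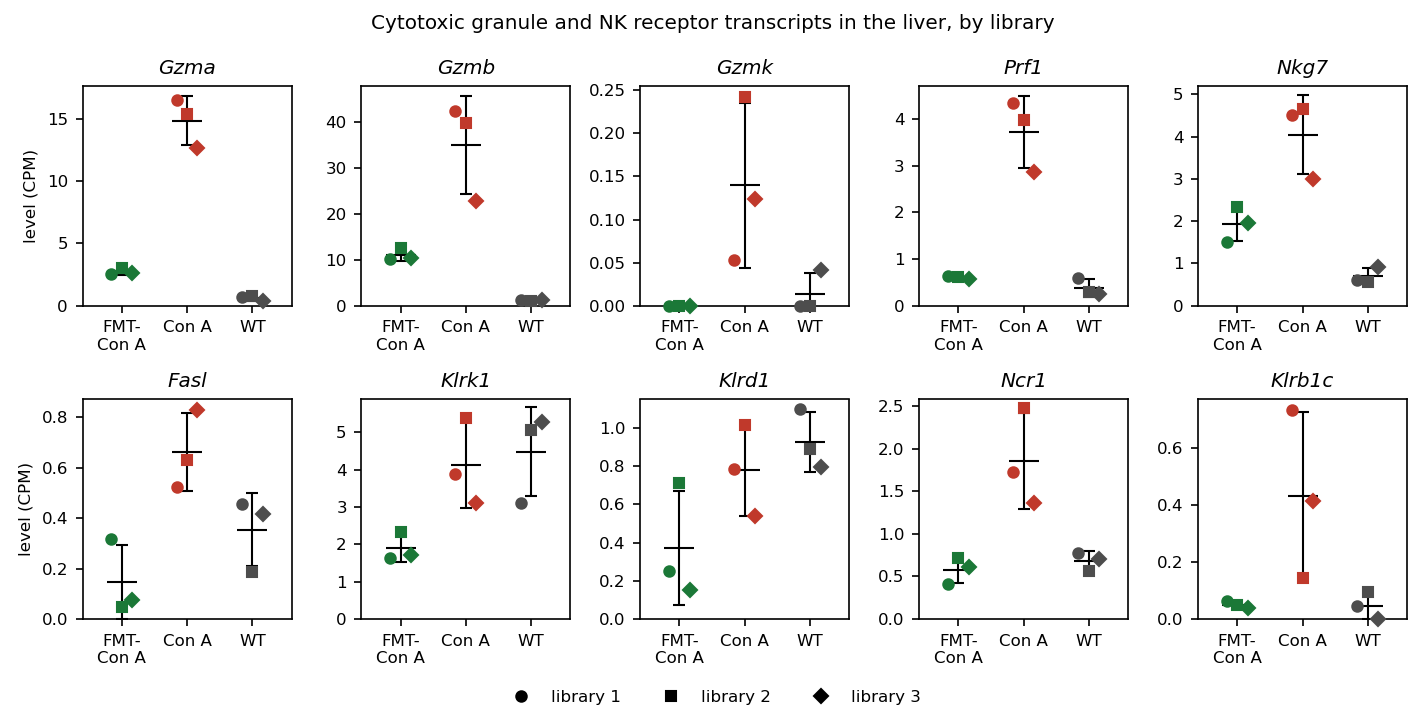
Level of each member in CPM (linear axes, each panel with its own scale) in the FMT-Con A, Con A and WT libraries; symbols mark libraries 1 to 3 and bars the mean and SD. For Gzma, Gzmb, Prf1 and Nkg7 all Con A libraries lie above all FMT-Con A libraries, and for Klrk1 and Klrd1 the Con A and WT libraries overlap.

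Gzmb encodes granzyme B, a serine protease that cuts after aspartate and triggers apoptosis. It had 10.2, 12.4 and 10.4 CPM in FMT-Con A, 42.3, 39.8 and 22.7 CPM in Con A, and 1.28, 0.936 and 1.17 CPM in WT. The 3 groups did not overlap, and Con A 3 was the low library of its group. Con A was 30.7-fold above WT (log2 fold change 4.94, SE 0.27, edgeR adjusted p = 6.48e-07). FMT-Con A fell by 1.67 on the log2 scale relative to Con A (SE 0.22, edgeR adjusted p = 0.00296) and remained 9.68-fold above WT (3.27, SE 0.26, edgeR adjusted p = 7.76e-06). Gzmb (ENSMUSG00000015437) lies on the minus strand of chromosome 14 at 56258838 to 56262260.

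Gzma encodes granzyme A, a trypsin-like granule protease. It had 2.53, 2.99 and 2.59 CPM in FMT-Con A, 16.5, 15.4 and 12.7 CPM in Con A, and 0.687, 0.796 and 0.334 CPM in WT. The groups again did not overlap, and the spread within each was small beside the distances between them. The log2 fold change was 4.62 for Con A against WT (SE 0.29, edgeR adjusted p = 1.2e-06), -2.46 for FMT-Con A against Con A (SE 0.25, edgeR adjusted p = 0.00147) and 2.16 for FMT-Con A against WT (SE 0.28, edgeR adjusted p = 0.000153). Gzma (ENSMUSG00000023132) lies on the minus strand of chromosome 13 at 113093825 to 113100981.

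Prf1 had 0.631, 0.617 and 0.572 CPM in FMT-Con A, 4.35, 3.98 and 2.86 CPM in Con A, and 0.595, 0.281 and 0.251 CPM in WT. Perforin transcripts in FMT-Con A thus overlapped those in WT, unlike granzyme A and B transcripts, while Con A lay apart from both. Con A was 9.82-fold above WT (log2 fold change 3.3, SE 0.36, edgeR adjusted p = 3.63e-05). FMT-Con A fell by 2.61 on the log2 scale relative to Con A (SE 0.34, edgeR adjusted p = 0.00278). Against WT the FMT-Con A value was 0.69 with a 95% interval of -0.17 to 1.55 (edgeR adjusted p = 0.146), and 1.18 without WT 1 (edgeR adjusted p = 0.0296). Prf1 (ENSMUSG00000037202) lies on the plus strand of chromosome 10 at 61297833 to 61304680.

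Nkg7 encodes a granule membrane protein needed for efficient degranulation. It had 1.52, 2.33 and 1.95 CPM in FMT-Con A, 4.5, 4.66 and 2.98 CPM in Con A, and 0.595, 0.562 and 0.92 CPM in WT. The order of the groups was that of Gzmb, with smaller distances. The log2 fold change was 2.53 for Con A against WT (SE 0.32, edgeR adjusted p = 8.4e-05) and 1.46 for FMT-Con A against WT (SE 0.32, edgeR adjusted p = 0.00314). For FMT-Con A against Con A it was -1.07 (SE 0.29, edgeR adjusted p = 0.0348), a call that was lost without Con A 1, Con A 2, FMT-Con A 1 or FMT-Con A 3 (edgeR adjusted p = 0.12, 0.0667, 0.139 and 0.107). Nkg7 (ENSMUSG00000004612) lies on the plus strand of chromosome 7 at 43437073 to 43438249.

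Gzmk, which encodes granzyme K, a protease found in memory-type T cells and some NK cells, was close to undetected. It had 0 counts in each FMT-Con A library, 1, 5 and 3 counts in Con A, and 0, 0 and 1 in WT. Over the groups, FMT-Con A was at least 3.71-fold lower than Con A against a floor of 3 counts for its 0, and at least 2.44-fold lower by the 95% counting interval, which also covers the counting error of Con A. Con A was 9.46 times WT by counts with a 95% counting interval of 1.31 to 415. These intervals and floors cover counting error only. Of the other 7 granzyme genes listed, Gzmm alone passed the filter, with log2 fold changes of 0.35 for FMT-Con A against Con A (edgeR adjusted p = 0.628) and -0.6 for Con A against WT (edgeR adjusted p = 0.277), and the other 6 had at most 1 count in any library. Gzmk (ENSMUSG00000042385) lies on the minus strand of chromosome 13 at 113171608 to 113225908.

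Fasl encodes the ligand of the death receptor Fas, a second route of killing that does not need granules. It had 10, 1 and 2 counts in FMT-Con A, 10, 13 and 20 in Con A, and 10, 4 and 10 in WT, which is 0.316, 0.0475 and 0.0763 CPM, 0.524, 0.631 and 0.829 CPM, and 0.458, 0.187 and 0.418 CPM. Con A lay above both other groups in every library, and FMT-Con A and WT overlapped. FMT-Con A fell by 2.03 on the log2 scale relative to Con A (SE 0.6, edgeR adjusted p = 0.0461), close to the threshold, and the call was lost when Con A 1, Con A 2, Con A 3, FMT-Con A 2 or FMT-Con A 3 was left out (edgeR adjusted p = 0.104, 0.0655, 0.122, 0.0806 and 0.154). Con A against WT gave 0.89 with a 95% interval of -0.35 to 2.14 (edgeR adjusted p = 0.183). FMT-Con A against WT gave -1.14 (interval -2.57 to 0.29, edgeR adjusted p = 0.15), but leaving out FMT-Con A 1 gave -2.38 (edgeR adjusted p = 0.0202). Fasl (ENSMUSG00000000817) lies on the minus strand of chromosome 1 at 161780689 to 161788495.

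Of the receptors, Ncr1 encodes NKp46, an activating receptor that marks NK cells and part of the innate lymphoid cells. It had 0.41, 0.712 and 0.61 CPM in FMT-Con A, 1.73, 2.47 and 1.37 CPM in Con A, and 0.778, 0.562 and 0.711 CPM in WT. Con A stood above both other groups, which overlapped. Con A was 2.69-fold above WT (log2 fold change 1.43, SE 0.34, edgeR adjusted p = 0.00448). FMT-Con A stood at -1.69 relative to Con A on the log2 scale (SE 0.34, edgeR adjusted p = 0.0137). That fall lost its call when FMT-Con A 1 was left out (edgeR adjusted p = 0.0701), and likewise for FMT-Con A 3 (0.0566). FMT-Con A against WT gave -0.26 with a 95% interval of -1.07 to 0.55 (edgeR adjusted p = 0.554). Ncr1 (ENSMUSG00000062524) lies on the plus strand of chromosome 7 at 4337724 to 4345164.

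Klrk1 encodes NKG2D, the activating receptor for stress-induced ligands, carried by NK cells and by activated CD8 T cells in mice. It had 1.64, 2.33 and 1.72 CPM in FMT-Con A, 3.88, 5.39 and 3.11 CPM in Con A, and 3.11, 5.06 and 5.27 CPM in WT. All FMT-Con A libraries lay below all others, and Con A and WT overlapped. FMT-Con A fell by 1.12 on the log2 scale relative to Con A (SE 0.3, edgeR adjusted p = 0.0321) and by 1.25 relative to WT (SE 0.3, edgeR adjusted p = 0.00501). Against WT the value was -0.94 with both FMT-Con A 1 and 3 left out, a fit that leaves FMT-Con A 2 alone. The call against Con A was lost without Con A 1, Con A 2, FMT-Con A 1 or FMT-Con A 3 (edgeR adjusted p = 0.0858, 0.0679, 0.124 and 0.109). Con A against WT gave -0.12 with a 95% interval of -0.76 to 0.52 (edgeR adjusted p = 0.729), an interval that lies below those of Gzma (3.97 to 5.26), Gzmb (4.33 to 5.55), Prf1 (2.49 to 4.11) and Nkg7 (1.82 to 3.24). Klrk1 (ENSMUSG00000030149) lies on the minus strand of chromosome 6 at 129610323 to 129623864.

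Klrd1 encodes CD94, which pairs with NKG2A or NKG2C to read the nonclassical MHC molecule Qa-1. It had 8, 15 and 4 counts in FMT-Con A, 15, 21 and 13 in Con A, and 24, 19 and 19 in WT, or 0.253, 0.712 and 0.153 CPM, 0.785, 1.02 and 0.539 CPM, and 1.1, 0.89 and 0.794 CPM. FMT-Con A lay below WT in every library and overlapped Con A because of FMT-Con A 2. The log2 fold change was -1.36 for FMT-Con A against WT (SE 0.51, edgeR adjusted p = 0.0429), and it lost its call without WT 1, WT 2, WT 3, FMT-Con A 1 or FMT-Con A 3 (edgeR adjusted p = 0.125, 0.0833, 0.0695, 0.151 and 0.147). With both FMT-Con A 1 and 3 left out it was -0.38, in a fit that leaves FMT-Con A 2 alone. It was -1.11 for FMT-Con A against Con A (interval -2.28 to 0.06, edgeR adjusted p = 0.165), but leaving out FMT-Con A 2 gave -1.87 (edgeR adjusted p = 0.022). For Con A against WT it was -0.25 (interval -1.33 to 0.83, edgeR adjusted p = 0.665). Klrd1 (ENSMUSG00000030165) lies on the plus strand of chromosome 6 at 129591782 to 129598775.

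Klrb1c encodes NK1.1, the antigen by which NK and NKT cells of C57BL/6 mice are usually sorted. It had 2, 1 and 1 counts in FMT-Con A, 14, 3 and 10 in Con A, and 1, 2 and 0 in WT, and was below the filter. Con A libraries were above all others, with Con A 2 close to them. By counts Con A was 9.46 times WT (95% counting interval 2.91 to 48.8), and Con A was 8.35 times FMT-Con A (2.91 to 32.8). With no filter on low counts Klrb1c rose in Con A against WT (edgeR adjusted p = 0.0115) and fell in FMT-Con A against Con A (edgeR adjusted p = 0.0372). Its exons share 413 bases with a gene model on the same strand that had 0 counts, so reads there may have gone uncounted. Klrb1c (ENSMUSG00000030325) lies on the minus strand of chromosome 6 at 128778485 to 128789215.

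**Figure D2:**
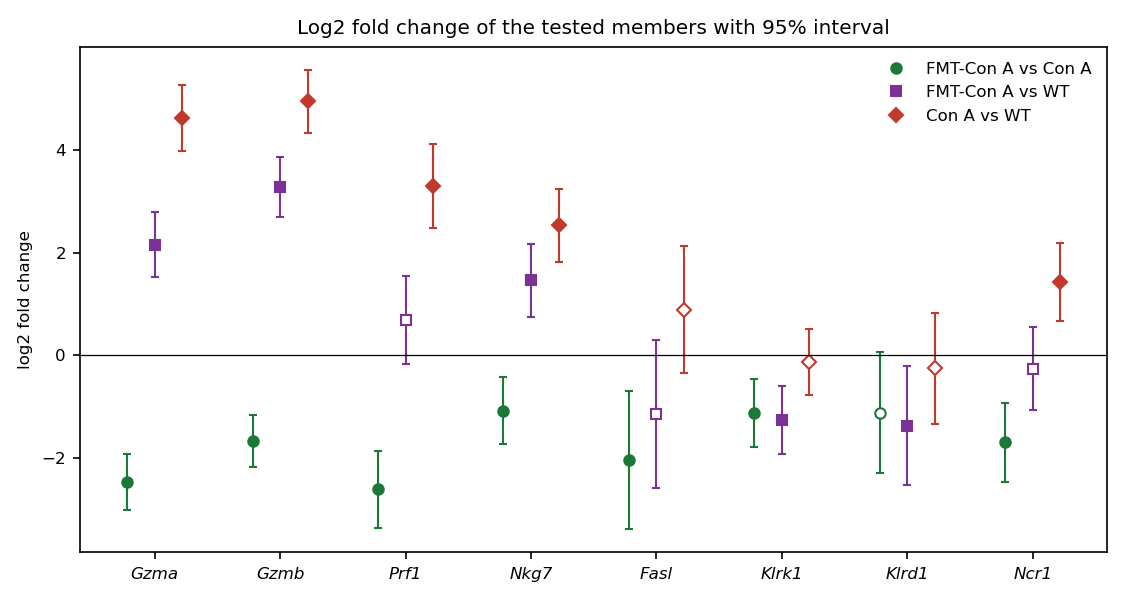
Log2 fold change of the 8 tested members in the 3 comparisons, with 95% intervals; filled symbols passed an edgeR adjusted p of 0.05 and open ones did not. Con A against WT spans 4.94 (Gzmb) to -0.25 (Klrd1), and every FMT-Con A against Con A value is below 0, between -1.07 (Nkg7) and -2.61 (Prf1).

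Per kilobase of exon (RPKM on the same scaling), 6 of the 10 members lay close to each other in WT, and the same 6 were farther apart after Con A. Gzmb ranked first in every group, at 7.66 ± 0.868 RPKM in FMT-Con A, 24.3 ± 7.42 in Con A and 0.787 ± 0.123 in WT (SD, n = 3 each). In WT the libraries of each neighbouring pair overlapped from Gzmb down through Nkg7, Klrd1, Klrk1 and Gzma to Ncr1 (0.444 ± 0.0719 RPKM), and Fasl, Prf1, Klrb1c and Gzmk lay below. In Con A the order was Gzmb, Gzma (14.8 ± 1.96 RPKM), Nkg7 (4.43 ± 1.01), Prf1 (1.44 ± 0.3), Ncr1 (1.21 ± 0.366), Klrd1, Klrk1, Fasl, Klrb1c and Gzmk, with overlap between Gzmb and Gzma, Prf1 and Ncr1, Klrd1 and Klrk1, and Klrb1c and Gzmk. In FMT-Con A Gzmb, Gzma (2.69 ± 0.25 RPKM) and Nkg7 (2.11 ± 0.444) stayed ahead, and Prf1 (0.235 ± 0.012) came after Ncr1, Klrd1 and Klrk1, each of which overlapped its neighbour. The Klrk1 exons in the annotation add up to 7183 bases, the most of any member, which lowers its RPKM.

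The proportion of granule to receptor transcripts separated the groups given Con A from WT. Summed CPM of Gzma, Gzmb, Gzmk, Prf1 and Nkg7 was 14.9, 18.4 and 15.5 in FMT-Con A, 67.7, 64.1 and 41.4 in Con A, and 3.16, 2.57 and 2.72 in WT. Summed CPM of Klrk1, Klrd1, Ncr1 and Klrb1c was 2.37, 3.8 and 2.52 in FMT-Con A, 7.12, 9.02 and 5.43 in Con A, and 5.04, 6.6 and 6.77 in WT. The first sum was 6.28, 4.84 and 6.15 times the second in FMT-Con A, 9.51, 7.1 and 7.62 times in Con A, and 0.627, 0.39 and 0.401 times in WT. The ratio in FMT-Con A was thus below every Con A library and far above every WT library, while both sums were lower than in Con A. On the log2 scale the mean ratio differed by 4.12 between Con A and WT, and by -0.49 between FMT-Con A and Con A, beside an SD within groups of 0.28. Klrk1 made up most of the receptor sum in every library, and Gzmb was the largest part of the granule sum. The receptor sum therefore hides the higher levels of Ncr1 (2.69-fold) and Klrb1c (9.46 times by counts) in Con A against WT. No test was made, since these sums are scores over chosen genes.

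**Figure D3:**
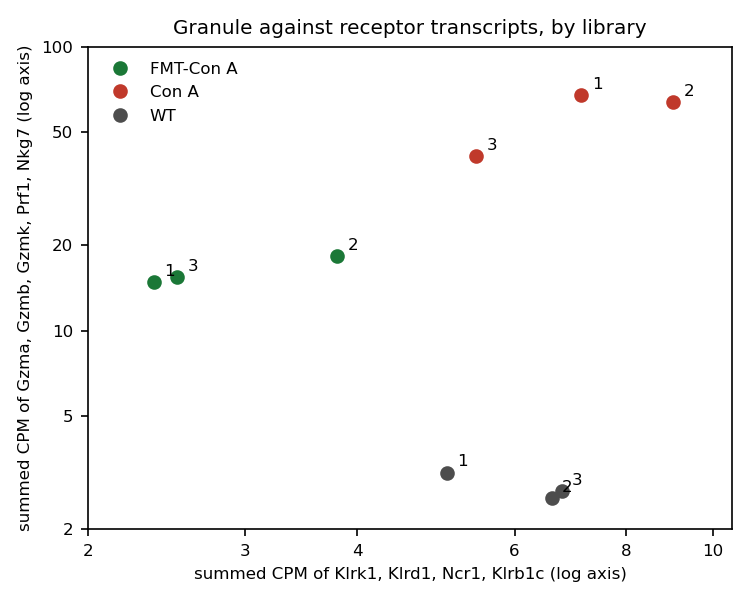
Summed CPM of 5 granule genes (vertical, log axis) against summed CPM of 4 receptor genes (horizontal, log axis), 1 point per library with its number. Con A and WT share a range on the horizontal axis (5.43 to 9.02 and 5.04 to 6.77) but not on the vertical one (41.4 to 67.7 and 2.57 to 3.16), and FMT-Con A lies to the left of both. The horizontal sum is mostly Klrk1 (mean 4.12 CPM in Con A and 4.48 CPM in WT), while Ncr1, and Klrb1c by counts, were higher in Con A than in WT.

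In FMT-Con A against Con A 7 members fell, and the number that fell was 4 without Con A 1, 4 without Con A 2, 4 without FMT-Con A 1, 3 without FMT-Con A 3 and 6 without Con A 3. It was 7 without FMT-Con A 2, where Fasl lost its call and Klrd1 gained one. Over all genes 620 of 18504 were lower without Con A 1, 2366 of 18483 without Con A 2 and 1458 of 18446 without Con A 3. Without FMT-Con A 1, 2 and 3 in turn, 513 of 18258, 2145 of 18525 and 580 of 18266 were lower. Gzma, Gzmb and Prf1 passed in each of these 6 fits and in the fit of the 2 groups alone. That last fit called 4 members lower, beside 832 of 16295 genes. FMT-Con A 1 and 3, the libraries richest in muscle transcripts, were also left out together, a setting chosen after seeing the data. The group is then FMT-Con A 2 alone, which is assumed to vary like the libraries of the other groups. Muscle transcripts remain in this fit, at 2090 CPM in FMT-Con A 2 and 2458 CPM in Con A 3 for the muscle list. A group of 1 library has no spread of its own, so only log2 fold changes are given here. They do not show whether the calls of Gzma, Gzmb and Prf1 hold without both libraries. Against Con A they were -2.31 for Gzma, -1.49 for Gzmb, -2.58 for Prf1 and -3.66 for Fasl. For Nkg7, Klrk1, Ncr1 and Klrd1 they were -0.79, -0.82, -1.37 and -0.12. Against WT in that setting the values were 2.3 for Gzma, 3.45 for Gzmb, 1.73 for Nkg7, 0.71 for Prf1 and 0.057 for Ncr1. They were -0.38 for Klrd1, -0.94 for Klrk1 and -2.76 for Fasl. With muscle and mitochondrial genes removed before scaling, 7 members fell, beside 1894 of 17781 genes. Con A 3 was the lowest of its group for 7 of the 10 members. The 5 rises in Con A against WT numbered 5 in each fit that left out 1 library.

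The other genes of the granule pathway moved less uniformly. Of 14 genes for maturation and release of granules 7 rose and 4 fell in Con A against WT, and 0 rose and 2 fell in FMT-Con A against Con A (median log2 fold change 0.67 and -0.4, beside 0.01 and -0.01 over all tested genes). Of all tested genes 32.5% rose and 30.9% fell in the first comparison, and 6.26% rose and 10.6% fell in the second. Srgn, the proteoglycan that packs granzymes and is also made by other blood cells, averaged 54.9 CPM in FMT-Con A, 76.6 in Con A and 3.74 in WT. It rose by 4.35 in Con A against WT (edgeR adjusted p = 1.32e-07), with -0.48 in FMT-Con A against Con A (edgeR adjusted p = 0.0524). Stx11, a syntaxin needed for granule release, rose by 3.54, and Lyst, a regulator of lysosome size, fell by 1.45 on the log2 scale in Con A against WT. Stx7 and Ap3b1 were the 2 that fell in FMT-Con A against Con A, by 0.48 and 0.51 on the log2 scale.

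Of 4 genes of granzyme inhibitors 3 rose in Con A against WT, where 32.5% of all tested genes rose (median of the list 2.68). Serpinb9, whose product blocks granzyme B, Serpinb9b and Serpinb6b rose (2.38, 3.95 and 2.97), and Serpinb6a had 0.57 (edgeR adjusted p = 0.0877). Serpinb9 averaged 7.35 CPM in FMT-Con A, 15.9 in Con A and 3.05 in WT. In FMT-Con A against Con A it fell by 1.11 on the log2 scale (edgeR adjusted p = 0.00972) and Serpinb6b by 1.42 (edgeR adjusted p = 0.00431), while Serpinb9b had -0.55 and Serpinb6a 0.71 without passing. All 4 were higher in FMT-Con A than in WT, where 31.2% of all tested genes rose.

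Signalling partners of the receptors changed in part. Of 9 tested, 4 rose and 0 fell in Con A against WT: Vav1 (1.59), Syk (1.1), Fcer1g (1.07) and Cd247 (2.21), which carry signals of several immune receptors. Over all tested genes 32.5% rose and 30.9% fell. In FMT-Con A against Con A Vav1 alone passed, at -0.79 (edgeR adjusted p = 0.0297), where 10.6% of all tested genes fell. Hcst, the adaptor DAP10 of NKG2D, averaged 0.169 CPM in FMT-Con A, 0.459 in Con A and 0.629 in WT. It fell in FMT-Con A against WT by 1.88 on the log2 scale (edgeR adjusted p = 0.00522), with -1.45 against Con A (edgeR adjusted p = 0.0591).

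Among 28 further receptor genes of NK cells in the files, 11 passed the filter. In Con A against WT 7 rose and 1 fell (median 1.84), and in FMT-Con A against Con A 0 rose and 4 fell (median -0.84). The shares of all tested genes that rose and fell were 32.5% and 30.9% in the first comparison, 6.26% and 10.6% in the second. Slamf7, an activating receptor also found on other leukocytes, averaged 2.02 CPM in FMT-Con A, 6.2 in Con A and 0.472 in WT, with log2 fold changes of 3.69 for Con A against WT and -1.63 for FMT-Con A against Con A (edgeR adjusted p = 1.13e-05 and 0.00896). Cd244a (2B4) rose by 2.08 and fell by 1.36 in the same comparisons, and Klra3 (Ly49C) rose by 1.49 and fell by 2.7, though reads of the near-identical Klra genes may be split between them. Crtam and Tigit rose by 4.66 and 3.06 in Con A against WT. Fcgr3 and Lilrb4a, which myeloid cells also express, rose by 2.17 and 1.84, and Lilrb4a fell by 0.79 in FMT-Con A against Con A.

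Of 4 tested genes for ligands and binding partners, 2 rose and 1 fell in Con A against WT, and 0 rose and 2 fell in FMT-Con A against Con A. Over all tested genes 32.5% rose and 30.9% fell in the first comparison, and 6.26% rose and 10.6% fell in the second. Fas, the receptor of Fas ligand, averaged 59.5 CPM in FMT-Con A, 83.8 in Con A and 19.8 in WT. It rose by 2.08 in Con A against WT (edgeR adjusted p = 8.92e-07) and fell by 0.49 on the log2 scale in FMT-Con A against Con A (edgeR adjusted p = 0.0231). H2-T23, which encodes Qa-1, rose by 0.87 and fell by 0.83 on the log2 scale in these comparisons. Clec2d was kept in this list although its product Clr-b binds other receptors of the NKR-P1 family than NK1.1. It averaged 55.3 CPM in FMT-Con A, 64.7 in Con A and 224 in WT. It fell by 1.79 on the log2 scale in Con A against WT (edgeR adjusted p = 2.13e-05) and had -0.23 in FMT-Con A against Con A (edgeR adjusted p = 0.397).

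**Figure D4:**
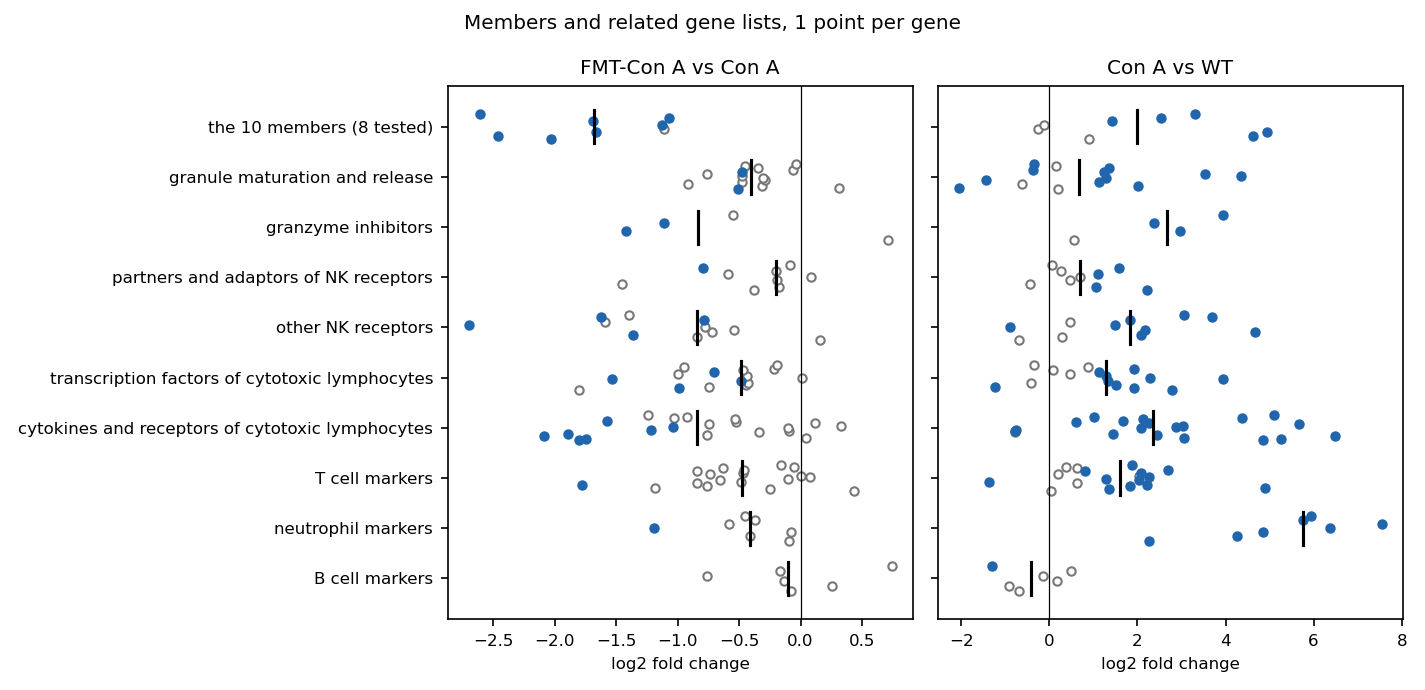
Log2 fold change of every tested gene of 10 lists, 1 point per gene, blue where it passed an edgeR adjusted p of 0.05, with a black line at the list's median; FMT-Con A against Con A on the left, Con A against WT on the right. The members have a median of -1.68 on the left and 1.98 on the right, and the T cell markers -0.48 and 1.6.

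Transcription factors and cytokine genes of cytotoxic lymphocytes were also measured. Of 15 tested factors 9 rose and 1 fell (Id2) in Con A against WT, and 0 rose and 4 fell in FMT-Con A against Con A. Prdm1, which encodes Blimp-1, averaged 4.3 CPM in FMT-Con A, 12.5 in Con A and 0.801 in WT, with log2 fold changes of 3.95 for Con A against WT and -1.54 for FMT-Con A against Con A (edgeR adjusted p = 6.66e-06 and 0.00994). Tbx21, which encodes T-bet, rose by 1.92 in Con A against WT (edgeR adjusted p = 0.000222). Of 20 cytokine and cytokine receptor genes 17 rose and 2 fell in Con A against WT, and 0 rose and 7 fell in FMT-Con A against Con A. Beside both lists, 32.5% of all tested genes rose and 30.9% fell in the first comparison, 6.26% and 10.6% in the second. Il2rb, the receptor chain through which interleukin-2 and interleukin-15 act on NK cells, averaged 3.19 CPM in FMT-Con A, 9.55 in Con A and 2.98 in WT, and fell by 1.58 on the log2 scale in FMT-Con A against Con A (edgeR adjusted p = 0.00236). Ccl3 and Ccl4, chemokines that activated lymphocytes and macrophages release, rose by 4.86 and 5.26 in Con A against WT, and fell by 1.8 and 1.74 in FMT-Con A against Con A.

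Marker lists of the cells that could carry these transcripts moved with the members only in part. Of 18 T cell genes 11 rose and 1 fell (Cd4) in Con A against WT, where 32.5% of all tested genes rose and 30.9% fell. In FMT-Con A against Con A 1 of the 18 fell and 0 rose, where 10.6% of all tested genes fell. That gene was Cd3e, with 1.29, 1.85 and 1.3 CPM in FMT-Con A, 8.54, 5 and 1.74 CPM in Con A, and 1.14, 0.655 and 1.46 CPM in WT, so Con A 3 lay near the other groups. The T cell list summed to 97.6 to 127 CPM in FMT-Con A, 126 to 175 CPM in Con A and 31.7 to 48.3 CPM in WT, most of it Zbtb16, whose level in these libraries is far above that of the T cell receptor genes. Cd8a, the coreceptor of cytotoxic T cells, had 0.08 in FMT-Con A against Con A (edgeR adjusted p = 0.91) after a rise of 2.26 in Con A against WT.

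Of 13 genes of liver NK cells and type 1 innate lymphoid cells, 7 rose and 2 fell in Con A against WT, and 1 rose and 3 fell in FMT-Con A against Con A. All tested genes gave 32.5% and 30.9% in the first comparison, 6.26% and 10.6% in the second. In the first comparison the rises with the lowest p were those of Itgam (3.86), Lgals3 (2.9) and Tmem176b (1.65). Which cells carried these transcripts was not tested, so the counts of genes are no measure of NK cells. Cxcr6 averaged 0.389 CPM in FMT-Con A, 1.18 in Con A and 1.55 in WT, and fell by 1.61 on the log2 scale in FMT-Con A against Con A (edgeR adjusted p = 0.0485). S1pr5 went against the members, with 79, 45 and 51 counts in FMT-Con A, 4, 13 and 20 in Con A, and 133, 69 and 147 in WT, and log2 fold changes of 1.94 for FMT-Con A against Con A and -3.17 for Con A against WT (edgeR adjusted p = 0.0177 and 0.00014). This list summed to 692 to 866 CPM in FMT-Con A, 691 to 951 CPM in Con A and 513 to 557 CPM in WT, most of it Tmem176a, Tmem176b and Rora, so the sum is no measure of NK cells.

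Neutrophil genes rose in 7 of 7 cases in Con A against WT, and Mmp8 alone fell in FMT-Con A against Con A. B cell genes fell in 1 of 6 cases (Pax5) in the first comparison and in 0 of 6 in the second, and 0 rose in either. Mast cells also make granule proteases, and of 10 mast cell and basophil genes Kit and Hdc passed the filter. Hdc fell by 0.66 on the log2 scale in FMT-Con A against Con A, and Kit had -0.06 without passing. The mast cell protease gene Tpsb2 had 18, 0 and 17 counts in FMT-Con A, 0, 0 and 2 in Con A and 0 in every WT library. Its counts in FMT-Con A thus came from FMT-Con A 1 and 3, the libraries richest in muscle transcripts. The mast cell and basophil list, most of it Hdc, summed to 23.4 to 26.4 CPM in FMT-Con A, 30.3 to 37.7 CPM in Con A and 14.3 to 20.4 CPM in WT. Of 12 Kupffer cell and macrophage genes 1 rose (Ccr2) and 3 fell in FMT-Con A against Con A, with a median log2 fold change of -0.64. Cd68, Adgre1 and Cd5l fell by 1.12, 1.43 and 1.42 on the log2 scale (edgeR adjusted p = 0.00199, 0.0214 and 0.0251). Of 9 hepatocyte genes 0 rose and 3 fell, with a median of -0.59: Cps1, Alb and Apob fell by 1.99, 0.88 and 0.86 on the log2 scale (edgeR adjusted p = 0.00651, 0.0221 and 0.037). Of 9 endothelial and stellate cell genes Stab2 fell by 0.53 on the log2 scale (edgeR adjusted p = 0.0351) and 0 rose, with a median of -0.3. In FMT-Con A against Con A 10.6% of all tested genes fell and 6.26% rose, and in Con A against WT 30.9% fell and 32.5% rose. The part of these cell markers and of the muscle transcripts in the members' differences was not tested.

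The genes whose levels were most like those of a member over the 9 libraries, by Pearson correlation of log2 CPM among expressed protein-coding genes, are given as a description. The libraries come from 3 groups, so these values largely restate the group means. For Gzmb they were Samhd1 (0.998), Sqstm1 (0.997) and Lypd8 (0.995), and for Gzma Oasl2 (0.991), Kdm4a (0.99) and Rnf213 (0.99). For Prf1 they were Irf5 (0.985), Samd9l (0.982) and Depp1 (0.977), and for Nkg7 Lcp2 (0.988), Nckap1l (0.988) and Soat1 (0.987). For Ncr1 they were Prr16 (0.975), Spic (0.967) and Btbd19 (0.967), for Klrk1 Golgb1 (0.948), Mocs2 (0.946) and Ccdc162 (0.942), and for Klrd1 Slc1a2 (0.968), Apol9b (0.953) and Lhpp (0.952).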

How the data were processed

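The deposited values are raw read counts per gene, 1 file per library; per the submitters' processing notes the authors used CASAVA, HISAT2 and featureCounts with GRCm38 (mm10). Strand setting, handling of reads that map to several places and annotation release are not given in the sources used here, so reads of overlapping or near-identical genes may be misassigned. Per the labels' protocols, libraries were made from polyadenylated RNA. Symbols, positions and exon lengths came from GENCODE vM21 on GRCm38, which named 52083 of 55359 Ensembl identifiers; 1360 numbered gene models held 1.43 to 1.98% of counts.

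All 9 libraries were fitted in edgeR 4.0.16 (R 4.3.3) with TMM scaling after filterByExpr (minimum count 10, minimum total 15), which kept 17704 genes, and groups were compared with the quasi-likelihood F test, two-sided, adjusted over all of them at 0.05. SE was obtained by dividing the size of the log2 fold change by the root of the F statistic, and 95% intervals use the degrees of freedom of that test. DESeq2 1.42.0 was an alternative. The procedure was tested on simulated data. Libraries of a group differed beyond sampling noise (median chi-square 2.56 or more times that of sampling), so each counts as 1 sample.

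The members, gene lists and tests were chosen with earlier results of these data known. Members are named whatever their p; from each other list, up to 6 genes with the lowest p among those that passed, or every tested gene where the list had 8 or fewer; other genes were named after their values were seen.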

Additional observations from a re-analysis of the deposited data

How the results depend on the processing

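Member counts kept their size for Con A against WT under every alternative run (5 or 6 higher, 0 lower; 5 with each library left out). For FMT-Con A against Con A, 7 were lower, 4 with the 2 groups alone, 3 against a fold of 1.5, 3 to 7 with 1 library left out and 0 without FMT-Con A 1 and 3; over all genes 1873 were lower, against 832, 273, 513 to 2366 and 67. For FMT-Con A against WT, 2 were lower, and 1 with no filter, with 1 CPM in 3 libraries, with the 2 groups alone or against a fold of 1.5, 1 or 2 with 1 library left out and 0 without FMT-Con A 1 and 3; 3 or 4 were higher. Over all genes this comparison gave 5517 higher and 4932 lower, 3419 and 3053 against a fold of 1.5, and 3741 and 3216 without FMT-Con A 1 and 3. The fits without FMT-Con A 1 and 3 test a single FMT-Con A library, with the spread taken from the other groups. The causes were not tested. Equal replicate numbers did not pair the libraries (correlation of their deviations between -0.22 and 0.34), and a replicate block gave 6 lower members in FMT-Con A against Con A, Nkg7 missing at an edgeR adjusted p of 0.0524. Mean log2 CPM in place of sums gave granule to receptor differences of 2.52 for Con A against WT and 2.12 for FMT-Con A against WT, beside 4.12 and 3.63. Sign changes were confined to values that had not passed: Klrk1 in Con A against WT (0.057 without Con A 3, and -0.37 to 0.057 over all fits without 1 library) and Ncr1 in FMT-Con A against WT (0.057 without FMT-Con A 1 and 3). Of the other single-gene values under alternatives, 300 kept their direction and side of the threshold, 40 lost their call and 3 gained one. By Spearman correlation 0 or 1 of the 3 genes most like each member were shared with those given. Depth limits Gzmk, Klrb1c, Fasl and Klrd1, with at most 24 counts in a library. Counts in WT were low for other members too: Gzma had 15, 17 and 8, Prf1 13, 6 and 6, Nkg7 13, 12 and 22, and Ncr1 17, 12 and 17. In FMT-Con A Prf1 had 20, 13 and 15 counts and Ncr1 13, 15 and 16.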

Other observations

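NKG2D, the product of Klrk1, binds ligands of the RAE-1 family, whose genes did not pass the filter on low counts and were picked out here after their values were seen. Raet1e had 7, 1 and 3 counts in FMT-Con A, 122, 16 and 5 in Con A, and 6, 3 and 9 in WT. Raet1d had 5, 6 and 3 counts in FMT-Con A, 77, 3 and 6 in Con A, and 6, 1 and 2 in WT. Both genes were high in Con A 1 alone, so the group means rest on that library. Ulbp1, a further ligand gene of NKG2D that passed the filter, averaged 0.591 CPM in FMT-Con A, 0.884 in Con A and 1.21 in WT, and fell by 1.05 on the log2 scale in FMT-Con A against WT (edgeR adjusted p = 0.0385).

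Zfp683, which encodes Hobit, a factor of liver-resident lymphocytes in mice, had 0 counts in each FMT-Con A library, 0, 1 and 0 in Con A, and 3, 3 and 13 in WT. Cd7, a surface protein of NK and T cells, had 2, 0 and 0 counts in FMT-Con A, 0, 1 and 0 in Con A, and 11, 4 and 18 in WT. Neither was tested, both were chosen after their values were seen, and both were near 0 in the groups given Con A, unlike Gzma and Gzmb.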
